A study of Mus musculus with 104 samples.

Results

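Liver and muscle of mouse fetuses (strain C57BL/6 in the labels and C57BL/6J in the study's methods) were compared in late gestation (E18.5), CpG by CpG, in reduced representation bisulfite sequencing (RRBS). RRBS cuts DNA at CCGG sites and sequences the fragments after bisulfite treatment, so that each CpG has a methylation level, the percentage of its reads that were methylated. The comparison took the CpG positions that the liver and the muscle tables share, on the mm9 genome build, and kept those with at least 3 values in each tissue. These were 30188 of the 33997 shared positions and of the 91022 positions in the liver, muscle and heart tables together. The 2 groups were liver (4 libraries, numbered 1, 6, 14 and 15) and muscle (4 libraries, numbered 1, 9, 14 and 15), both of 1 strain. The labels record the stage as E18 and do not say which muscle was taken or whether libraries came from separate animals, so the p-values measure the spread between these libraries. Livers and muscles at postnatal days 1 (P1) and 20 (P20), and hearts, served as independent libraries for the CpGs found here.

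In mammals methyl groups on CpGs are placed by DNA methyltransferases and are lost where transcription factors and demethylating enzymes hold an enhancer or promoter open, so cell types carry different patterns at the regulatory elements they use. The late fetal liver is a mixed organ, in which hepatocytes that secrete serum proteins such as alpha-fetoprotein lie among maturing red cells and other blood precursors. Late fetal skeletal muscle holds multinucleate fibres formed under the control of MyoD family factors, with connective tissue, vessels and nerve. Both were measured as bulk tissue, and a difference in the share of cells of a type cannot be told apart from a difference within the cells.

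The 6 sequences below are the highest ranked regions in each direction that hold no untranslated region, 3 more methylated in liver (Aktip, Ccrn4l and Slc38a4) and 3 less methylated in liver (Sept9, Epha2 and Myo10). Each is the plus strand of mm9, with 20 bases on either side of the region, and the capitals mark the CpGs that were called. Their positions are chr8:93694966-93695050, chr3:51051648-51051829, chr15:96943101-96943190, chr11:117103593-117103773, chr4:140868330-140868534 and chr15:25539148-25539301, in that order.
Aktip: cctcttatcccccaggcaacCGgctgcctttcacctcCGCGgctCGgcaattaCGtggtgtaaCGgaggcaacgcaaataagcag
Ccrn4l: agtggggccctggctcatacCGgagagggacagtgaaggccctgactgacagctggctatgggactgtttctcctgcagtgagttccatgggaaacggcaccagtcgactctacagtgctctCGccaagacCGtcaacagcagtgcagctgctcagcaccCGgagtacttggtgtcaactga
Slc38a4: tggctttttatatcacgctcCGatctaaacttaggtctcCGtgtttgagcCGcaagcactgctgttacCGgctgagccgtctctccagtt
Sept9: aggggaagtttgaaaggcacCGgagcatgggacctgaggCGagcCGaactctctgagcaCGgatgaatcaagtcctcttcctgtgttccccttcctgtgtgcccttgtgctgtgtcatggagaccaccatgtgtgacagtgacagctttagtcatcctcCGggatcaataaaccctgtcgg
Epha2: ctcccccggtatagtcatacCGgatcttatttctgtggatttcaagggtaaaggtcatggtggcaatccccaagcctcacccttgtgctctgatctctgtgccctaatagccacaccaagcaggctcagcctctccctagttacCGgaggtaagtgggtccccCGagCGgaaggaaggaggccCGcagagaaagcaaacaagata
Myo10: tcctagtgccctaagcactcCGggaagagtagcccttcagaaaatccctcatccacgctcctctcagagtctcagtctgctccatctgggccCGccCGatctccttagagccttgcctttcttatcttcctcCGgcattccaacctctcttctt

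Mean methylation differed between the tissues by less than the spread between libraries, while the share of highly methylated CpGs differed by more. Over the 9272 CpGs with a value in all 8 libraries, the mean was 47.4% to 52.2% in the liver libraries and 48.0% to 52.6% in the muscle libraries, and the groups overlapped. The means over libraries were 49.7% ± 2.03 (SD, n = 4) and 50.1% ± 2.02 (SD, n = 4), a difference of -0.41 points with p = 0.771 in a two-sided exact permutation test. CpGs over 80% methylated were fewer in liver. They made up 20.2%, 14.8%, 20.4% and 13.3% of CpGs in liver libraries 1, 6, 14 and 15, and 24.9%, 29.0%, 26.6% and 28.0% in muscle libraries 1, 9, 14 and 15. The groups did not overlap, and the exact two-sided permutation test gave p = 0.0286, the smallest that 4 against 4 libraries can give. CpGs under 20% methylated made up 22.6% ± 2.16 (SD, n = 4) in liver and 27.4% ± 3.21 (SD, n = 4) in muscle, and these overlapped (exact permutation p = 0.0857). Of the 3 measures, the share over 80% was the 1 in which the tissues did not overlap.

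**Figure D1:**
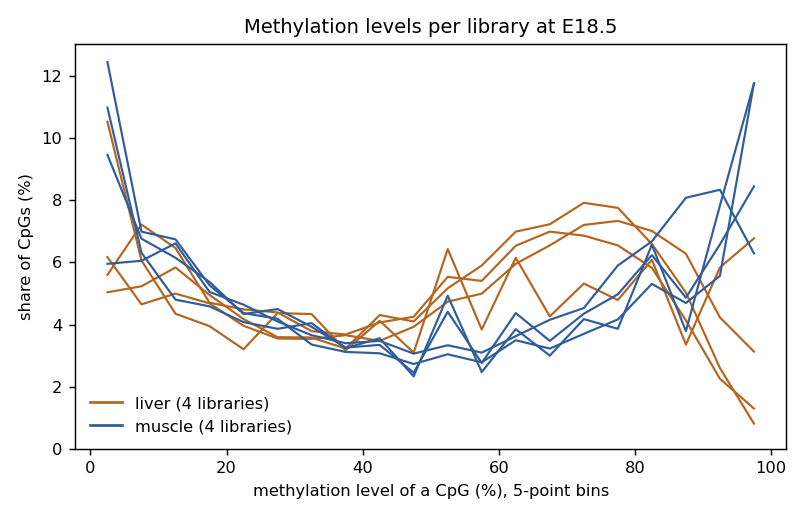
Share of CpGs (y axis, %) in each 5-point bin of methylation level (x axis, %) at the 9272 CpGs with a value in all 8 libraries, with 1 line per library. Muscle libraries rise towards full methylation, while liver libraries have 13.3% to 20.4% of CpGs over 80% against 24.9% to 29.0% in muscle.

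At single CpGs the tissues differed widely. Of the 30188 CpGs, 5722 were called, which is 19% (limma, a difference over 5 percentage points with an adjusted p no higher than 0.1). Of these 3316 (11.0% of the CpGs tested) were more methylated in liver and 2406 (7.97%) less methylated in liver. All calls lay well above the 5-point limit, since the smallest difference was 14.1 points among the higher and 12.7 points among the lower CpGs, with a median standard error of 7.59 points. Library means did not overlap at 3033 of the higher and 2191 of the lower CpGs, against 7667 (25.4%) of all CpGs tested, beside the 19% called. Leaving out liver library 6 gave 3167 calls, 1960 higher and 1207 lower, and leaving out liver library 15 gave 1343 lower. Liver library 14 and muscle library 15 lacked 41.7% and 41.3% of the values, and without both 5386 of the 26807 CpGs that remained were called.

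The 2 directions were not mirror images. The CpGs higher in liver averaged 59.0% in liver and 21.7% in muscle, and 1721 of them (51.9%) were under 20% in muscle and between 20% and 80% in liver. By library they averaged 62.2%, 59.6%, 61.4% and 54.3% in livers 1, 6, 14 and 15 and 21.1%, 25.9%, 18.4% and 20.6% in muscles 1, 9, 14 and 15. The CpGs lower in liver averaged 48.8% in liver and 78.2% in muscle, and 1442 of them (59.9%) were over 80% in muscle and between 20% and 80% in liver. Only 10 CpGs were under 20% in liver and over 80% in muscle, and 35 the other way round. Differences over 30 points were more often towards liver, with 2348 of the higher CpGs (70.8%) and 933 of the lower CpGs (38.8%). This left 28.4% of the calls over 30 points on the lower side, against 42.0% of all calls. The direction also depended on how libraries were scaled. At the 13557 CpGs averaging at least 50% in both tissues, the median level was 71.9% to 76.4% in the liver libraries and 81.8% to 85.2% in the muscle libraries. When each library was divided by that median, 4355 CpGs were called higher and 936 lower in liver, so that 17.7% of calls were lower, and the median difference over all CpGs moved from -1.55 to 4.13 points. The cause of this lower ceiling in liver was not tested.

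**Figure D2:**
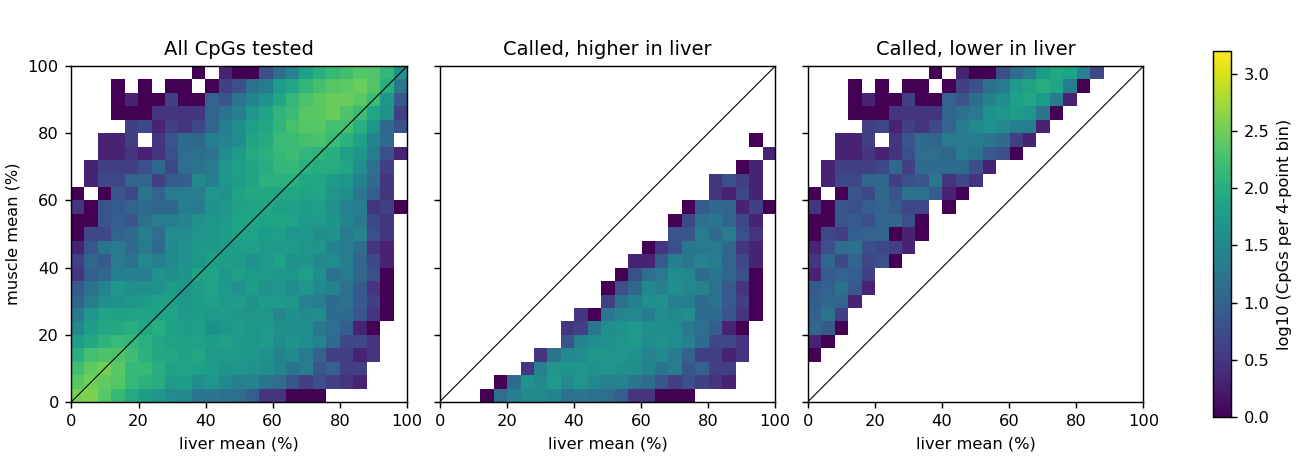
Mean methylation in liver (x axis, %) against muscle (y axis, %) in 4-point bins, coloured by log10 of the number of CpGs, for all 30188 CpGs and for the 3316 called higher and 2406 called lower in liver. The higher CpGs spread along low muscle levels, and the lower CpGs lie mostly at muscle levels over 80%.

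Promoters, here the 1 kb upstream of a start in the GENCODE annotation of mm9, held 7.01% of the CpGs tested, 5.76% of those higher and 4.2% of those lower in liver. Introns held 33.8% of the CpGs tested and 40.9% of the higher and 35.9% of the lower ones, exons 17.6%, 13.4% and 14.0%, and intergenic sequence 41.3%, 39.8% and 45.5%. Distance was taken to the nearest start of the gene a CpG lay in, even where another gene started closer, or failing that to the nearest start. Its median was 17381 bp over all CpGs, 21828 bp over the higher and 21377 bp over the lower ones. Over CpGs higher or lower by more than 30 points it was 23365 bp and 17000 bp. Calls were fewer where CpGs were dense, and levels were lower there. With up to 10 CpGs within 200 bp on either side, 11.8% of CpGs were higher and 10.2% lower in liver. The shares were 12.3% and 6.61% with over 10 to 20 CpGs, 4.15% and 3.55% with over 20 to 30, and 5.91% and 1.44% with over 30. Mean levels were 55.4% in liver and 55.5% in muscle with up to 10 CpGs, and 22.7% and 21.2% with over 30. On the X chromosome 13 of 209 CpGs were called (6.22%, beside 19% of all CpGs tested), 12 of them lower in liver.

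Motifs of tissue transcription factors were counted around the calls. Windows of 100 bases on either side of the middle of a cluster, 1 for each cluster of CpGs within 200 bp, were searched on both strands. CAGCTG, an E-box of the kind that MyoD family factors bind, stood in 23.2% of the 2078 windows higher in liver, in 9.79% of the 1962 windows lower in liver and in 14.0% of all 15238 windows. Over 30 points the shares were 25.1% and 11.2%. AGATAA, the core bound by GATA factors of blood and liver, went the other way, with 5.63% of the higher windows, 10.6% of the lower ones and 7.82% of all, and 13.7% of the windows lower by over 30 points. TGTTTAC, bound by FOXA and other forkhead factors, stood in 1.97%, 3.41% and 2.62% of the higher, lower and all windows. TGTGGTT, bound by RUNX factors, stood in 2.98%, 4.74% and 3.5%, CAAAGTC, part of the HNF4A element, in 3.75%, 2.04% and 2.84%, and TATTTTTA, an MEF2 element, in 1.64%, 1.02% and 1.23%. TTGCGCAA, a CEBP element, was found in 3 windows in all. No test was made of these shares, and a match is a description, not a binding site.

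Some called CpGs lay in runs. With gaps of at most 200 bp there were 2079 runs higher and 1971 lower in liver, single positions included. At least 4 called positions were held by 122 runs higher in liver, with 609 of the 3316 positions, and by 19 lower in liver, with 87 of the 2406. Runs among all CpGs tested were not counted. Library means did not overlap between the tissues in 120 and 19 of these runs of at least 4, which building them from called CpGs made likely. The 12 with the largest difference in each direction, at most 1 per gene, were taken, and 11 higher and 12 lower in liver are named here by the gene they lie in or by the nearest start. Regions outside genes lay 6223 bp (Rcan3), 13000 bp (Myo10) and 20689 bp (Sec14l1) from that start. Others lay 36622 bp (Aktip), 47183 bp (Gm10009), 56734 bp (Slc38a4) and 110855 bp (Edn3) from it. A value for a library is the mean over the region's called CpGs measured in it, and a difference is the mean over CpGs of liver minus muscle. In 9 of the 23 regions, and in 10 of the 19 list genes named further on, a library measured only some of these CpGs. The number of CpGs is then given with its value, and it is left out of means given with an SD. The values chose the regions and are therefore a description.

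The largest difference lay 36622 bp from the start of Aktip, which encodes an AKT-interacting protein. Its 6 CpGs averaged 81.4%, 81.9%, 83.0% and 81.3% in livers 1, 6, 14 and 15, and 0%, 24.7% and 0% in muscles 1, 9 and 14, with no value in muscle 15. The livers were nearly level and the muscles split between 0 and the higher value of library 9. The difference was 73.7 points, with limma adjusted p-values of 0.0026 to 0.00617 over its CpGs. In an exon of Ccrn4l, which encodes the circadian deadenylase-like protein nocturnin, 4 CpGs averaged 82.2%, 96.4%, 81.2% (1 CpG only) and 80.6% in livers 1, 6, 14 and 15 and 28.3%, 26.0%, 8.0% and 5.0% in muscles 1, 9, 14 and 15. The tissues were far apart, by 69.7 points. Near Slc38a4, an amino acid transporter, the 4 livers averaged 74.2%, 81.1%, 67.1% and 81.9% and the 4 muscles 24.4%, 10.3%, 15.1% and 10.7%, a difference of 61.0 points.

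The other 8 regions described that were higher in liver differed by 54.0 to 60.9 points. Rbm20, the splicing factor of titin and other sarcomere transcripts, held 6 intronic CpGs at 79.1%, 70.4% and 66.6% in livers 1, 6 and 15 and 15.9%, 11.2% and 13.7% in muscles 1, 9 and 14, with a difference of 58.0 points. Liver 14 measured 1 of the 6, at 40%. Col27a1, a fibrillar collagen of cartilage, averaged 72.1% ± 10.5 (SD, n = 4) in liver and 17.7% ± 13.2 (SD, n = 3) in muscle. Il17rd, an inhibitor of FGF signalling, averaged 80.4% ± 6.35 (SD, n = 3) in liver and 19.5% ± 1.60 (SD, n = 4) in muscle. Camta1, a calmodulin-binding transcription activator, averaged 79.4% ± 9.57 and 20.3% ± 3.42 (SD, n = 4 each). The remaining 4 were Smug1, a uracil-DNA glycosylase, Bicc1, an RNA-binding protein, Bcas3 and Sec14l1. In 2 of these 4 muscle library 15 had no value.

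Of the regions lower in liver, the one with the largest difference lay in an intron of Sept9, a septin of the cytoskeleton. Its 5 CpGs averaged 24.4%, 24.6%, 36.3% and 10.7% in livers 1, 6, 14 and 15 and 81.1%, 68.6%, 84.1% and 63.8% (4 CpGs) in muscles 1, 9, 14 and 15. The tissues were 51.3 points apart. In an intron of Epha2, a receptor tyrosine kinase for ephrins, 6 called positions at 5 CpGs, 1 of them read on both strands, averaged 27.0%, 14.8%, 18.8% and 11.6% in the livers and 67.5%, 61.5%, 75.0% and 75.4% (2 positions) in the muscles in the same order, 50.9 points apart. Near Myo10, a myosin of filopodia, 4 CpGs averaged 7.8%, 13.0%, 5.3% and 8.2% in the livers and 49.4%, 71.6%, 27.6% and 75.6% (3 CpGs) in the muscles. The muscles scattered widely there, and the limma adjusted p-values ran from 0.00733 to 0.0997 over the CpGs. Only 1 of the 4 CpGs was called without liver 1, 6 or 15 or without muscle 9. The other 9 regions lower in liver differed by 32.6 to 44.4 points. Limma adjusted p-values near the limit of 0.1 occurred there too, up to 0.0846 at Hpn, 0.0875 at Rcan3 and 0.093 at Gm10009. Hpn encodes hepsin, a serine protease abundant on hepatocytes, and its 4 CpGs averaged 45.0% ± 16.8 (SD, n = 4) in liver and 87.0% ± 6.86 (SD, n = 3) in muscle. Erg, an ETS transcription factor of endothelium and blood stem cells, averaged 22.2% ± 8.70 (SD, n = 4) and 67.5% ± 17.2 (SD, n = 3). The region near Rcan3, a regulator of calcineurin, averaged 6.66% ± 3.42 (SD, n = 4) and 45.1% ± 7.15 (SD, n = 3), and Nr2c1, an orphan nuclear receptor, 54.1% ± 4.33 (SD, n = 4) and 85.3% ± 2.99 (SD, n = 3). The region named by Edn3, the peptide endothelin 3, lay 110855 bp from its start and averaged 53.8% ± 9.25 and 94.6% ± 9.35 (SD, n = 3 each). The last 4 were Cyth1, Dchs1, Gm10009 and 4930440I19Rik. In Dchs1, a protocadherin, only 1 of 4 CpGs was called without liver library 6 or 15.

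**Figure D3:**
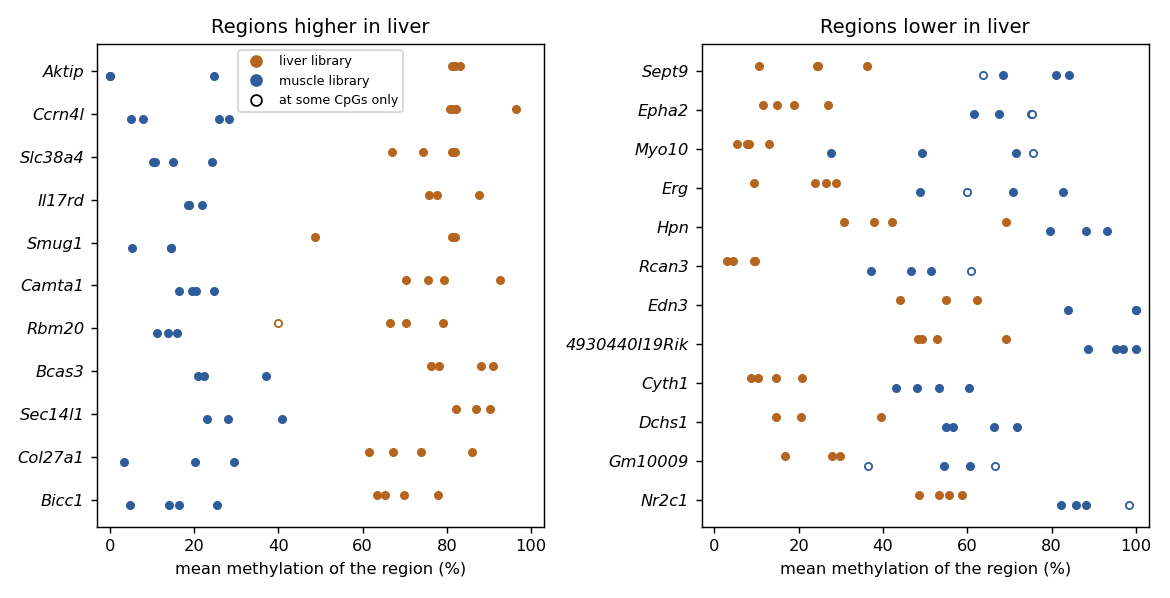
Mean methylation (x axis, %) over the called CpGs of the 11 regions named higher and the 12 named lower in liver, with 1 point per library, open where it measured only some of the CpGs. In every region the liver points and the muscle points do not overlap, which the choice of regions fixed.

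Genes of known function were read from 9 lists, as called CpGs between 5 kb upstream of the start and the end of the gene. Of 13 CpGs in 8 genes for hepatocyte products, 4 were lower and 2 higher in liver, against 7.97% and 11.0% of all CpGs tested, and their median difference was -15.2 points against -1.55 over all. Alpha-fetoprotein (Afp), the main serum protein of the fetus, had all 3 of its CpGs called lower. They averaged 7.05%, 6.50%, 10.4% and 7.23% in livers 1, 6, 14 and 15 and 66.1%, 57.6%, 74.4% and 75.0% (2 CpGs) in muscles 1, 9, 14 and 15. The difference was 59.6 points, with limma adjusted p-values of 0.0026 to 0.00396, larger than that of any region lower in liver named above. Fbp1, a gluconeogenic enzyme, had its 1 CpG lower in liver by 24.8 points. Sds, serine dehydratase, went the other way, at 47.2% ± 15.9 (SD, n = 3) in liver and 11.5% ± 5.49 (SD, n = 4) in muscle over 2 CpGs.

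Liver transcription factors had 3 of 60 CpGs higher (5%) and 6 lower (10%) in liver, beside 11.0% and 7.97% of all CpGs tested, with a median difference of 1.14 points. Klf15 averaged 72.5% ± 6.82 (SD, n = 4) in liver and 95.8% ± 3.73 (SD, n = 3) in muscle over 2 CpGs, neither of which was called after scaling to highly methylated CpGs. In Esrrg 2 CpGs were higher and 3 lower, and the mean of -5.75 points became 0.18 after that scaling. Blood and erythroid genes had 14 of 83 CpGs higher (16.9%) and 5 lower (6.02%), beside the same 11.0% and 7.97%, with a median difference of 6.84 points. The partner of GATA1, Zfpm1, had 3 CpGs at 20.1%, 22.2% and 19.5% in livers 1, 6 and 15 and at 57.3%, 53.2% and 76.0% in muscles 1, 9 and 14, with a difference of -42.2 points. Liver 14 measured 2 of them, at 2.94%, and muscle 15 measured 1, at 75.0%. Runx1 and Runx3, transcription factors of blood lineages, were instead more methylated in liver. Runx1 averaged 56.6% ± 3.41 (SD, n = 3) against 17.4% ± 7.68 (SD, n = 3) over 5 CpGs, and Runx3 37.2% ± 3.00 against 8.23% ± 2.82 (SD, n = 3 each) over 7 CpGs, of which liver 14 and muscle 15 measured 2 each. In Runx3 only 2 of the 7 were called without liver 6 or without muscle 9.

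Myogenic regulators had 1 of 35 CpGs higher (2.86%) and 1 lower (2.86%), against 11.0% and 7.97% of all CpGs tested, with a median liver level of 6.64% and a median muscle level of 10.4%, so most of these CpGs were little methylated in either tissue. The higher CpG lay at Myog, which drives fibre formation, at a mean of 34.4% in liver and 3.96% in muscle. The lower one lay at Tbx1, at a mean of 0.327% in liver and 21.9% in muscle. Contractile and muscle enzyme genes had 9 of 104 CpGs higher (8.65%) and 9 lower (8.65%). Myom1, an M-band protein, averaged 71.7% ± 2.23 (SD, n = 4) in liver and 45.7% ± 3.52 (SD, n = 3) in muscle, as 2 CpGs higher in liver. Tnni1, the slow troponin I, went the other way at 41.9% ± 6.21 (SD, n = 4) and 71.4% ± 14.9 (SD, n = 3), and neither of its 2 CpGs was called after scaling to highly methylated CpGs, on the logit scale, or without liver 6, liver 15, muscle 9 or muscle 14. Cacnb1, a calcium channel subunit, had 2 CpGs higher and 1 lower, of which 1 was called without liver 1 and 0 without liver 6.

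Of the other lists, Hox and limb patterning genes had 4 of 153 CpGs higher (2.61%) and 15 lower (9.80%), beside 11.0% and 7.97% of all CpGs tested, and their median level was 7.91% in liver and 10.6% in muscle. Hoxa3 averaged 10.4% ± 3.04 (SD, n = 4) in liver and 51.7% ± 2.63 (SD, n = 3) in muscle over 3 CpGs, and Hoxc4 10.4% ± 7.28 (SD, n = 4) and 44.2% ± 4.25 (SD, n = 3) over 3 CpGs, 1 of which was called without muscle 9. Alx4 was lower in liver by 36.8 points, while Twist2 was higher by 39.2 points. Genes of connective tissue, fat, vessels and nerve had 7 of 36 CpGs higher (19.4%) and 4 lower (11.1%). Pdgfrb, the receptor of pericytes and fibroblasts, averaged 73.5% ± 9.61 (SD, n = 3) in liver and 28.4% ± 17.5 (SD, n = 4) in muscle, and Scx, the tendon factor scleraxis, 34.9% ± 8.65 and 5.16% ± 4.62 (SD, n = 3 each). Of the 4 CpGs of Scx only 1 was called without liver 6, muscle 1 or muscle 9. Col6a3, a collagen VI chain, was lower in liver by 27.3 points, and neither of its CpGs was called after scaling to highly methylated CpGs, under quantile normalisation, on the logit scale, or without liver 1, liver 6 or muscle 9. Imprinted genes had 9 of 113 CpGs higher (7.96%) and 0 lower, with a median difference of 7.95 points. All 4 CpGs of Rian, a noncoding RNA of the Dlk1 locus, were higher, at 45.9%, 42.4%, 46.7% and 40.6% in livers 1, 6, 14 and 15 and 11.3%, 15.7%, 11.0% and 9.39% (3 CpGs) in muscles 1, 9, 14 and 15. Kcnq1 was higher by 35.9 points over 3 CpGs. Germline genes had 0 of 25 CpGs higher and 2 lower (8%).

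**Figure D4:**
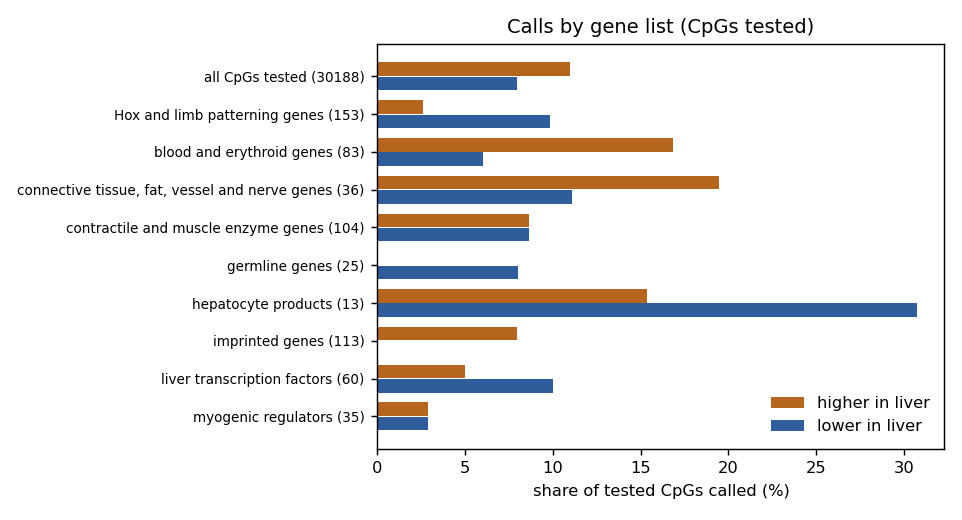
Share of tested CpGs called (x axis, %) higher or lower in liver for all 30188 CpGs and 9 gene lists, with the number of CpGs tested in brackets. Hepatocyte products have 30.8% lower in liver against 7.97% of all CpGs, on 13 CpGs.

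The calls were then read in the independent P1 and P20 libraries. At P1, where 18.2% of the 30157 CpGs tested at both ages were higher and 8.03% lower in liver (26.3% called), 2710 of the 3310 CpGs higher at E18.5 and tested at P1 were called higher again (81.9%), and 1 was called lower. They made up 49.3% of the P1 calls in that direction. Of the 2406 lower CpGs 849 were called lower again (35.3%), or 35.0% of the P1 calls lower in liver, and 6 were called higher. At P20, where 14.1% of the 24751 CpGs tested at both ages were higher and 1.61% lower in liver (15.7% called), 1306 of 2775 higher CpGs (47.1%) but only 98 of 1890 lower CpGs (5.19%) kept their call. A further 91 of the lower CpGs were called higher in liver at P20. The 1306 were 37.3% and the 98 were 24.6% of the P20 calls in their direction.

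Each library was averaged over the CpGs of a set that it measured, at E18.5 1695 to 3316 of the higher and 1517 to 2406 of the lower set. The higher set averaged 59.4% ± 3.55 (SD, n = 4) in liver at E18.5 and 55.6% ± 2.54 (SD, n = 5) at P20, and 21.5% ± 3.17 and 27.2% ± 4.09 (SD, n = 4 each) in muscle. The liver mean of the lower set was 48.1% ± 2.86 (SD, n = 4) at E18.5, 56.2% ± 1.10 (SD, n = 4) at P1 and 68.0% ± 1.97 (SD, n = 5) at P20, and its muscle mean was 78.6% ± 2.41 (SD, n = 4), 70.9% ± 1.94 (SD, n = 5) and 65.4% ± 4.06 (SD, n = 4). At P20 muscle library 2 measured 928 CpGs of the lower set, at a mean of 59.4%, beside 66.6% to 68.4% in the other P20 muscle libraries. Liver library 1 measured 988, at 71.0%, beside 66.1% to 68.4% in the other P20 livers. Over the 1890 lower CpGs tested at P20, liver minus muscle averaged 0.23 points. The sets were chosen on the E18.5 values, so their difference at that age is a description. The interaction term of limma, which compares the tissue difference at E18.5 with that at P20, passed an adjusted p of 0.1 at 1236 of 24751 CpGs, and in 981 of these liver was relatively lower at E18.5. The median of this difference of differences was -7.21 points over all these CpGs and -7.32 points over those not called at E18.5, where 489 of the 544 that passed were relatively lower. Among the named regions, Epha2 was at 12.9% ± 4.23 (SD, n = 4) in liver and 60.9% ± 1.14 (SD, n = 2) in muscle at P20. Dchs1 was at 15.9% ± 10.5 and 66.6% ± 12.8 (SD, n = 4 each), and Sept9 at 72.0% ± 2.41 (SD, n = 2) and 77.1% ± 3.33 (SD, n = 3). Of the CpGs tested at P20, the call lower in liver was kept at 4 of 5 in Epha2, 4 of 4 in Myo10 and Dchs1 and 1 of 4 in Nr2c1. It was kept at 0 in Sept9, Erg, Rcan3, Edn3, 4930440I19Rik and Gm10009. The call higher in liver was kept at all in Aktip, Slc38a4, Camta1, Rbm20, Col27a1 and Bicc1, at 3 of 5 in Smug1 and at 1 of 4 in Ccrn4l and Sec14l1.

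**Figure D5:**
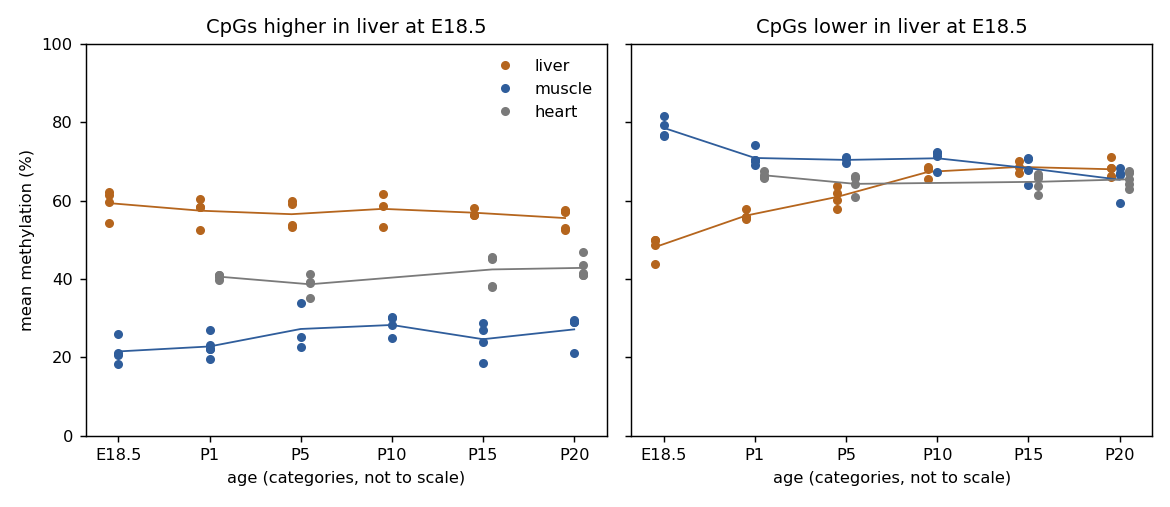
Mean methylation (y axis, %) of the CpGs called higher and lower in liver at E18.5, with 1 point per library and lines through the group means, in liver and muscle from E18.5 and in heart from P1, up to P20 (x axis, ages as categories). In liver and muscle the higher set goes from 59.4% and 21.5% at E18.5 to 55.6% and 27.2% at P20, and the lower set from 48.1% and 78.6% to 68.0% and 65.4%. Each point averages only the CpGs its library measured.

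Heart, a second striated muscle, lay between the tissues in the mean over each set. The sets were chosen for their difference between liver and muscle. At single regions it could lie outside the range of the liver and muscle means, as at Slc38a4, Myo10, Sept9 and Hpn below. At P1, over 2586 CpGs of the higher set measured in all 3 tissues, liver averaged 56.9% ± 3.56 (SD, n = 4), heart 40.6% ± 0.593 (SD, n = 4) and muscle 23.2% ± 2.58 (SD, n = 5), and heart was nearer muscle at 1346 of them (52.0%). Over 2180 CpGs of the lower set liver averaged 56.7% ± 1.13 (SD, n = 4), heart 66.5% ± 0.783 (SD, n = 4) and muscle 71.2% ± 2.02 (SD, n = 5), with heart nearer muscle at 1304 (59.8%). Of the 13 named regions with every CpG measured in at least 2 P1 libraries of each tissue, heart was nearer liver at the 3 higher in liver, and at the 10 lower in liver it was nearer muscle in 6 and nearer liver in 4. At Slc38a4 heart was at 77.1% ± 8.19 (SD, n = 4), beside 72.5% ± 9.32 (SD, n = 4) in liver and 21.8% ± 5.86 (SD, n = 5) in muscle. At Myo10 heart was at 9.13% ± 3.49 (SD, n = 4), beside 16.1% ± 6.23 (SD, n = 4) in liver and 54.8% ± 13.9 (SD, n = 5) in muscle. At Sept9 heart was at 75.5% ± 4.25 (SD, n = 3), beside 21.8% ± 9.60 (SD, n = 4) in liver and 73.3% ± 11.0 (SD, n = 5) in muscle. At Hpn heart was at 82.7% ± 2.86, beside 46.0% ± 12.8 in liver and 76.7% ± 4.50 in muscle (SD, n = 4 each).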

How the data were processed

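Methylation of 4 liver and 4 muscle libraries at E18.5 was read from the fractions the authors deposited per CpG and library, which are methylated reads over all reads, and was multiplied by 100. Per the study's methods and processing notes, reads were aligned with Bismark 0.7.6 and Bowtie2 to mm9 (mm10 tables were an alternative). CpGs under 10 reads were set to missing, and CpGs missing in over 20% of samples or under 10% methylated in all were removed. Tables were filtered per tissue, so only CpGs kept in both could be compared. No read counts per CpG were used. The depth of single values is unknown, and no binomial intervals are given. The E18.5 heart libraries were not analysed here, and 22 columns that match no sample label were not used.

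The moderated linear model of limma 3.58.1 (R 4.3.3) was fitted to the fractions of the 8 libraries wherever each tissue had 3 values or more. Calls required a difference over 5 percentage points and a p no higher than 0.1 after Benjamini-Hochberg adjustment. Library means and shares were tested by exact permutation. Genes came from GENCODE on mm9. Named regions were runs of at least 4 CpGs called in 1 direction (gaps of at most 200 bp) whose library means did not overlap, the 12 largest in each direction. From each list the 4 genes with the largest difference and at least 2 called CpGs were named, except that a region and a list gene are not reported here. Other list genes with 1 called CpG (Fbp1, Myog and Tbx1) were chosen after their values were seen. The CpGs, lists and motifs were chosen with earlier results of these data known. Alternatives covered the test, scale, limits, missing values, scaling, strands, build, libraries and the replicate number. Plots and annotation used Python 3.11.15.

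On simulated data with the spread of these 8 libraries and 30188 CpGs, of 6000 CpGs changed by 30 points 70.2% were called, with 8.66% of calls unchanged CpGs. Changes of 60 points gave 97.7% and 8.76%, and of 15 points 0 calls.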

Additional observations from a re-analysis of the deposited data

Results flagged for a closer look

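A library stood apart from the other 3 of its tissue in 1 of 40 groups of 4 libraries that measured every CpG concerned (chance flags about 1 in 20 groups). At the Il17rd region muscle library 9 was at 21.9%, beside 18.6% to 18.8%.

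The tissue difference differed between E18.5 and P20, by the interaction term of limma (adjusted p no higher than 0.1 at 2 or more CpGs), in 3 named regions, all lower in liver at E18.5. The difference at E18.5 minus that at P20 was -51.4 points at Sept9 (2 of 4 CpGs passed), -47.3 points at Rcan3 (3 of 5) and -39.8 points at Edn3 (3 of 4). Of all CpGs called lower in liver at E18.5 and tested here, 483 of 1890 passed (25.6%), with a median of -27.7 points. Over all CpGs tested 1236 of 24751 passed (4.99%). The regions were chosen on their E18.5 values.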

How the results depend on the processing

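The 5722 calls (3316 higher, 2406 lower in liver) became 3676 with an unmoderated model (2030 higher), 3320 on the logit scale (1899 and 1421), 1793 at CpGs with all 8 values (925 and 868), 3281 over 30 points (933 lower) and 3504 at an adjusted p of 0.05 (1262 lower). Storey q-values on the unmoderated model gave 6498 (3349 and 3149) and all ages in 1 fit 6177. Scaling to highly methylated CpGs left 936 lower. Leaving out 1 library gave 3167 to 5838 calls. The higher calls then ranged from 1960 to 3380 and the lower calls from 1207 to 2458. Without liver library 6 there were 3167 calls (1960 higher, 1207 lower), and without liver library 15 1343 lower. The fall in these counts was not traced to a cause. In the deviations of the libraries, same-numbered liver and muscle libraries correlated at 0.0028, -0.052 and -0.026, so the numbers were not read as pairs. With the replicate block, limma called 0 of 23002 CpGs (0 higher, 0 lower), with 3792 at an unadjusted p under 0.05. The same pairs without the block, tried after the data were seen along with the fit lacking 2 sparse libraries, gave 438 calls (312 and 126) and 4240. Over all CpGs tested at P20, the 4399 calls of 28021 became 2145 on the logit scale and 703 of 4532 at CpGs with every value, and 3009 to 4215 without 1 library. At P1 the 8849 calls of 33960 became 7037 to 8523 without 1 library.

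The difference in mean methylation, never past the test, became 0.161 points over all CpGs with a value, and ranged from -1.24 to 0.435 without 1 library. The share over 80% stayed lower in liver by 8.65 to 11.0 points without 1 library, with a permutation p of 0.0286 each time. The share under 20% ranged from -6.02 to -3.42 points, and passed the test only without muscle library 9 (exact permutation p = 0.0286). With 5 kb promoters the shares of the higher and lower CpGs were 14.9% and 13.6% in promoters, 11.2% and 11.6% in exons, 36.8% and 32.5% in introns, and 37.2% and 41.9% in intergenic sequence, beside 17.7%, 14.3%, 29.9% and 37.9% of all CpGs tested. Over 30 points, promoters held 4.94% of the higher CpGs, and introns and intergenic sequence 39.4% and 42.0% of the lower ones. With 200 bases on either side the share with CAGCTG around higher CpGs was 1.52 times that around all, against 1.66 times with 100 bases. For TGTTTAC around lower CpGs the ratio went from 1.30 with 100 bases to 1.09, and for TATTTTTA around lower CpGs from 0.83 to 1.04. All 23 named regions kept their direction and the call of at least 2 CpGs on the logit scale, with all ages in 1 fit and under both scalings. Fewer than 50% of a region's CpGs stayed called in 1 region without liver library 1 or muscle library 9, and in 2 without liver library 6 or 15. Of the 19 list genes this was so in 6 on the logit scale, 3 under quantile normalisation, 3 after scaling to highly methylated CpGs, and 5 each without liver library 6 or muscle library 9. The block fit held only 1 of the 3 called CpGs of Cacnb1, at -13.5 points against a mean of 25.9 over all 3, so different CpGs were averaged. The Esrrg difference became 0.18 points after scaling to highly methylated CpGs.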

Other observations

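One CpG of this comparison was also read by locus-specific bisulfite sequencing, in which chosen fragments are amplified, in 4 livers of the same numbers. It lies near Klf9, at chr19:23211054-23211055 of mm9. The amplicon gave 23.4%, 25.8%, 22.2% and 20.3% in livers 1, 6, 14 and 15, and RRBS gave 17.5%, 2.38% and 19.8% in livers 1, 6 and 15. Muscles 1, 9 and 14 were at 20.0%, 2.86% and 13.0% in RRBS, and the CpG was not called.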
